A study of Arabidopsis thaliana with 18 samples.

Results

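The light switch of seed germination was followed through 10 genes in 3 states of Arabidopsis thaliana seeds. They were taken by locus identifier from a list drawn up with earlier results of these data known, and make up 10 of the 33602 genes in each deposited table. The set holds the red and far-red light receptors PHYA and PHYB, the bHLH transcription factors PIL5 (also called PIF1), PIF3, PIF4, PIF5 and PIF6, the zinc finger gene SOM (SOMNUS), the bZIP gene HY5 and the atypical bHLH gene HFR1. RNA had been sequenced from 18 seed samples in 6 groups of 3. Both genotypes are titled as complemented: +WT seeds carried an intact copy of the complementing gene, and ΔDS seeds carried a copy with its DS segment deleted. From what is known of the study, that gene is FLOE1 (AT4G28300). Each genotype was sampled in a dry, an imbibed and a salt state. Imbibed seeds had 5 days of cold in the dark at 4 °C on MS medium with 0 mM NaCl, followed by 4 hours of light (130 µmol per square metre per second) at 22 °C. Salt seeds were treated alike with 220 mM NaCl in the medium. The host allele, the promoter of the transgene, the number of lines per genotype and the source of each replicate are not given in the labels. The p-values therefore measure the spread between these samples only, which may be technical. Effects of the deletion, of a line or its insertion site, and of the amount of FLOE1 transcript cannot be told apart.

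In the dark, PIL5 is a stable protein that holds germination back. It raises the transcription of SOM and of genes that favour abscisic acid over gibberellin. Red light turns phytochromes into their active form, which enters the nucleus, binds PIF proteins and marks them for degradation, so that gibberellin synthesis can rise and the seed can germinate. PHYB acts in the red/far-red reversible response of seeds and PHYA in the response to very weak light after imbibition. HFR1 binds PIL5 and keeps it from DNA, and HY5 is a main activator of light responses in the seedling. These steps act largely on proteins, whereas the data here are transcript levels.

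PIL5 and its relatives bind the G-box (CACGTG) and the related PBE-box (CACATG), so the 250 bases before the annotated start of each gene were searched for both on either strand. Of 27443 such windows of protein-coding genes, 6.5% held a G-box and 11.1% a PBE-box. The windows of SOM, PIL5 and PIF4 are shown because these genes fell most clearly in imbibed ΔDS seeds together with PIF6, whose window overlaps a lncRNA and is not printed. They were read from RefSeq's TAIR10.1 and are printed 5′ to 3′ on the strand of the gene, at chr1:954040-954289 (plus strand) for SOM, chr2:8707010-8707259 (minus) for PIL5 and chr2:17885851-17886100 (plus) for PIF4. Capitals mark the motif.
SOM: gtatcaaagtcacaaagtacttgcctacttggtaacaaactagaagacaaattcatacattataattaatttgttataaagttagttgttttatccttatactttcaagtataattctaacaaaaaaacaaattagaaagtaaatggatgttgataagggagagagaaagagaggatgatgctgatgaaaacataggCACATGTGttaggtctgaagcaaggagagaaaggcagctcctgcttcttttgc
PIL5: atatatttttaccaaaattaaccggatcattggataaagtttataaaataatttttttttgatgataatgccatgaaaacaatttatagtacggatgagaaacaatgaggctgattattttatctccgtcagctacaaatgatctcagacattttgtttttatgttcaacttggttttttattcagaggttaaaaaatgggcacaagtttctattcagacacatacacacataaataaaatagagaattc
PIF4: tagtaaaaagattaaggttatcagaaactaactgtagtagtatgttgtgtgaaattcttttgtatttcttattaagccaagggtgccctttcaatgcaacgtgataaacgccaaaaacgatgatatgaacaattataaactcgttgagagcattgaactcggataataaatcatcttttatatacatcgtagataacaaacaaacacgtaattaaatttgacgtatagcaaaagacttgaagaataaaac
The window of SOM held 2 matches to CACATG, 1 on each strand, that overlap and form the capitals. Neither motif occurred in the windows of PIL5 or PIF4. G-boxes were found at 3 places in the windows of the other members, and these are shown as 30 bases each with the G-box in capitals, at chr2:8139598-8139627 and chr2:8139633-8139662 (plus) for PHYB and at chr3:21830985-21831014 (minus) for PIF5.
PHYB, upper site: gggcccagcaacCACGTGtggccactagag
PHYB, lower site: aaaccattagccCACGTGatcttgggccca
PIF5 site: ttaactagtcaaCACGTGaaataaatgcga
HY5 held 1 match to CACATG, in a window that overlaps the neighbouring gene AT5G11270. No match of either motif was found in the windows of PHYA, PIF3, PIF6 and HFR1. A match here is a string of letters, and binding was not measured.

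The values below come from the authors' tests of genotype within each state, given as a log2 fold change with its standard error (SE) and an adjusted p-value. A gene was called at an adjusted p below 0.05. The headers do not name the direction, which was taken to be ΔDS over +WT because the names stand in that order, so a positive value means higher in ΔDS, and the opposite order would turn all signs and exchange the implied levels and ranks of +WT and ΔDS. Values per library were not in the files. A group level is therefore an implied mean, worked out from the mean and the fold change, with 3 libraries on each side. Mean normalised counts summed to between 24526188 and 26367661 per table. FLOE1 was 46.1-fold lower in ΔDS in dry seeds, 47.8-fold in imbibed seeds and 31.9-fold in salt seeds by the authors' deposited tables, and the labels do not say how the authors counted reads from the ΔDS copy. In bulk seeds, fewer cells of a type and less RNA per cell cannot be told apart.

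Transcripts of the PIF genes PIL5, PIF4, PIF5 and PIF6, of SOM and of PHYB were lower in imbibed ΔDS than in imbibed +WT seeds, by 1.22-fold to 2.17-fold. In dry seeds PHYA was higher in ΔDS, and in salt seeds PIL5 was lower. In each state 9 of the 10 genes had an adjusted p, the exception being HFR1. In imbibed seeds 6 of these 9 fell (PHYB, PIL5, PIF4, PIF5, PIF6 and SOM) and 0 rose, beside 19.5% of all tested genes lower, 21.3% higher and 40.8% either way. Their median log2 fold change was -0.42, beside 0.02 over all tested genes. In dry seeds 1 of 9 rose (PHYA) and 0 fell, beside 2.96% higher, 3.10% lower and 6.06% either way, with a median of 0.08 beside 0.00. In salt seeds 1 of 9 fell (PIL5) and 0 rose, beside 6.99% lower, 6.98% higher and 14.0% either way, with a median of 0.05 beside 0.00. The dry and salt counts are near these shares and are no result about the set. At an unadjusted p below 0.05, 3 genes were higher and 0 lower in dry, 0 and 6 in imbibed, and 1 and 2 in salt seeds by the authors' deposited tables.

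The split of calls depended on the scaling between genotypes. The implied totals of normalised counts were lower in ΔDS than in +WT, by -0.08, -0.19 and -0.16 on the log2 scale in dry, imbibed and salt seeds. Scaling by these totals raises every fold change by as much. It gave 1 higher (PHYA, adjusted p = 0.0446) and 4 lower genes in imbibed seeds, 3 higher (PHYA, PHYB and PIL5) and 0 lower in dry seeds, and 5 higher (PHYA, PHYB, PIF6, SOM and HY5) and 0 lower in salt seeds. Under that scaling 42.3% of all tested genes were called either way in imbibed, 8.74% in dry and 22.6% in salt seeds. The falls of PIL5, PIF4, PIF6 and SOM in imbibed seeds were called under each of the 6 alternatives.

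**Figure D1:**
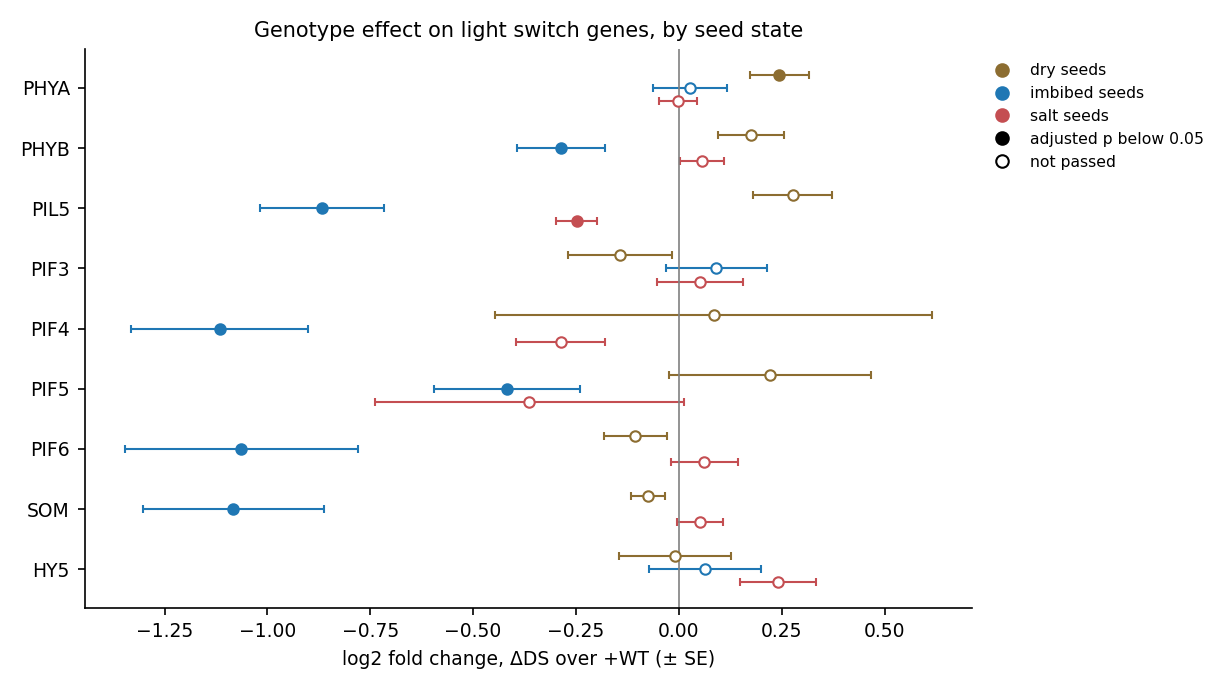
Log2 fold change of ΔDS over +WT seeds (x axis) for 9 light switch genes (y axis) in dry, imbibed and salt seeds, from the authors' deposited tables. Points are fold changes, bars are ± 1 SE and filled points have an adjusted p below 0.05. In imbibed seeds 6 points are filled and lie left of 0, with PIF4 farthest at -1.12.

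The receptors moved little. PHYA (AT1G09570, chromosome 1, 3095160 to 3100819, minus strand) encodes the receptor that accumulates in darkness and is destroyed in light. Its implied level in dry seeds was 2447 normalised counts in +WT and 2898 in ΔDS, 1.18-fold higher (log2 fold change 0.24 ± 0.071, SE, adjusted p = 0.0153 in the authors' deposited table). With the trend of fold change over exon length removed, this rise was no longer called (adjusted p = 0.511). In imbibed seeds PHYA stood at 29187 and 29724 normalised counts in +WT and ΔDS, a ratio of 1.02 with a 95% interval of 0.901 to 1.15 (0.03 ± 0.090, adjusted p = 0.839 in the authors' deposited table). The levels in salt seeds were 25371 and 25325, with a 95% interval of the ratio of 0.937 to 1.06 (adjusted p = 0.984 in the authors' deposited table).

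PHYB (AT2G18790, chromosome 2, 8139756 to 8144461, plus strand) encodes the light-stable receptor, and its window carries both G-boxes shown above. In imbibed seeds it fell 1.22-fold, from 3543 normalised counts in +WT to 2904 in ΔDS (-0.29 ± 0.107, adjusted p = 0.0222 in the authors' deposited table). This call was lost when libraries were scaled by their implied totals (adjusted p = 0.469) and when the length trend was removed (adjusted p = 0.0754). In dry seeds the levels were 1385 and 1564 (0.18 ± 0.081, adjusted p = 0.232 in the authors' deposited table), and in salt seeds 3791 and 3939 (0.06 ± 0.054, adjusted p = 0.599 in the authors' deposited table). Neither of these passed the test, but with scaling by implied totals both did, as higher in ΔDS (0.25, adjusted p = 0.0250 in dry and 0.21, adjusted p = 7.28e-04 in salt seeds).

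PIL5 (AT2G20180, chromosome 2, 8704024 to 8707009, minus strand), the PIF with the main part in germination, was called in imbibed and salt seeds, the only member called in more than 1 state with the authors' scaling. With scaling by implied totals PHYA was called in all 3 states and PHYB, PIL5, PIF6 and SOM in 2 each, in differing directions for PIL5, PIF6 and SOM. Imbibed +WT seeds had 11298 normalised counts and imbibed ΔDS seeds 6193, a 1.82-fold fall (-0.87 ± 0.150, adjusted p = 3.06e-07 in the authors' deposited table). The fall in salt seeds was 1.19-fold, from 9717 to 8182 (-0.25 ± 0.049, adjusted p = 1.58e-05 in the authors' deposited table). Scaled by implied library totals, the salt value was -0.09 and no longer passed (adjusted p = 0.192). Dry seeds had 527 in +WT and 639 in ΔDS, which did not pass (0.28 ± 0.096, adjusted p = 0.0588 in the authors' deposited table). This dry value, opposite in sign to the imbibed one, did pass with a floor on the mean of 5 counts per 1000000 of a table's summed normalised counts (CPM; adjusted p = 0.0421) and with scaling by implied totals (0.36, adjusted p = 0.00507). On its other strand 334 bases overlap AT2G20170, whose mean was below 1 normalised count in each of the 3 tables.

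PIF6 (AT3G62090, also named PIL2; chromosome 3, 22988547 to 22990709, minus strand) is a PIF known for its transcript in developing seeds and for a part in dormancy. It fell 2.09-fold in imbibed seeds, from 884 normalised counts in +WT to 423 in ΔDS (-1.06 ± 0.283, adjusted p = 0.00102 in the authors' deposited table). Dry seeds had 1868 and 1736 (-0.11 ± 0.076, adjusted p = 0.558 in the authors' deposited table) and salt seeds 1093 and 1142 (0.06 ± 0.081, adjusted p = 0.730 in the authors' deposited table). Neither value passed. PIF6 overlaps the lncRNA AT3G09745 over 2083 bases and AT3G62080 over 231 bases, both on the other strand. Strandedness is not stated in the sources used here, and without it reads of PIF6 and of these partners cannot be told apart. AT3G62080 itself was at -0.14 ± 0.19 in imbibed seeds (adjusted p = 0.575 in the authors' deposited table), and the lncRNA was not analysed here.

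PIF4 (AT2G43010, chromosome 2, 17886101 to 17889087, plus strand), which drives growth in warmth and shade, had the largest fold change of the 6 called in imbibed seeds. It fell 2.17-fold, from 999.6 normalised counts in +WT to 461 in ΔDS (-1.12 ± 0.215, adjusted p = 4.54e-06 in the authors' deposited table). In salt seeds it was at 834 and 683, which narrowly missed the threshold (-0.29 ± 0.108, adjusted p = 0.0531 in the authors' deposited table). The salt value passed with the floor of 5 CPM (adjusted p = 0.0404), centred on the median gene (adjusted p = 0.0487) and with the length trend removed (adjusted p = 0.0475), and was -0.13 with scaling by implied totals (adjusted p = 0.430). Dry seeds held little of it, 14.8 and 15.7 normalised counts, and the 95% interval of the ratio ran from 0.516 to 2.18 by the authors' deposited table. The ratio in imbibed seeds was 0.461.

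PIF5 (AT3G59060, also named PIL6; chromosome 3, 21827905 to 21830837, minus strand), a close relative of PIF4, was low in all groups. In imbibed seeds it fell 1.34-fold, from 166 to 124 normalised counts (-0.42 ± 0.177, adjusted p = 0.0454 in the authors' deposited table). The call was lost with scaling by implied library totals (adjusted p = 0.294) and with adjustment over all genes that have a p (adjusted p = 0.0524). Dry +WT and ΔDS seeds had 74.0 and 86.3 (0.22 ± 0.245, adjusted p = 0.757 in the authors' deposited table), and salt seeds 36.8 and 28.6 (-0.36 ± 0.376, adjusted p = 0.633 in the authors' deposited table). Neither value passed.

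PIF3 (AT1G09530, chromosome 1, 3075768 to 3079654, plus strand), the first PIF found to bind phytochrome, did not pass in any state. Its levels in +WT and ΔDS were 321 and 291 normalised counts in dry, 892 and 950 in imbibed, and 526 and 545 in salt seeds. The authors' deposited tables gave -0.14 ± 0.127, 0.09 ± 0.123 and 0.05 ± 0.105 in that order. In imbibed seeds the 95% interval of the ratio was 0.901 to 1.26, whereas the ratio of PIL5 was 0.548.

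SOM (AT1G03790, chromosome 1, 954290 to 956144, plus strand, a single exon block) encodes a CCCH zinc finger protein that restrains germination downstream of PIL5. Its promoter window holds the 2 overlapping PBE-box matches shown above, and the window of HY5 holds 1 match. In imbibed seeds it fell 2.12-fold, from 15719 normalised counts in +WT to 7420 in ΔDS (-1.08 ± 0.219, adjusted p = 1.38e-05 in the authors' deposited table). Dry seeds had 24913 and 23656 (-0.07 ± 0.042, adjusted p = 0.382 in the authors' deposited table). Salt seeds had 26183 and 27140 (0.05 ± 0.056, adjusted p = 0.659 in the authors' deposited table). In these 2 states the 95% intervals of the ratio were 0.897 to 1.01 and 0.960 to 1.12, far from the ratio seen in imbibed seeds.

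HY5 (AT5G11260, chromosome 5, 3593335 to 3595073, minus strand) did not pass in any state with the authors' scaling and filter. It had 293 and 291 normalised counts in dry, 931 and 973 in imbibed, and 713 and 842 in salt +WT and ΔDS seeds. The salt value was the nearest to the threshold (0.24 ± 0.092, adjusted p = 0.0611 in the authors' deposited table). It was called higher in salt seeds with the floor of 5 CPM (adjusted p = 0.0467) and with scaling by implied totals (0.40, adjusted p = 2.09e-04). HFR1 (AT1G02340, chromosome 1, 465616 to 467880, minus strand) was listed at 0 in the dry and salt tables and averaged 1.03 normalised counts in imbibed seeds in the authors' deposited tables, so that no fold is given. An absence of HFR1 transcript cannot be read from these means.

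**Figure D2:**
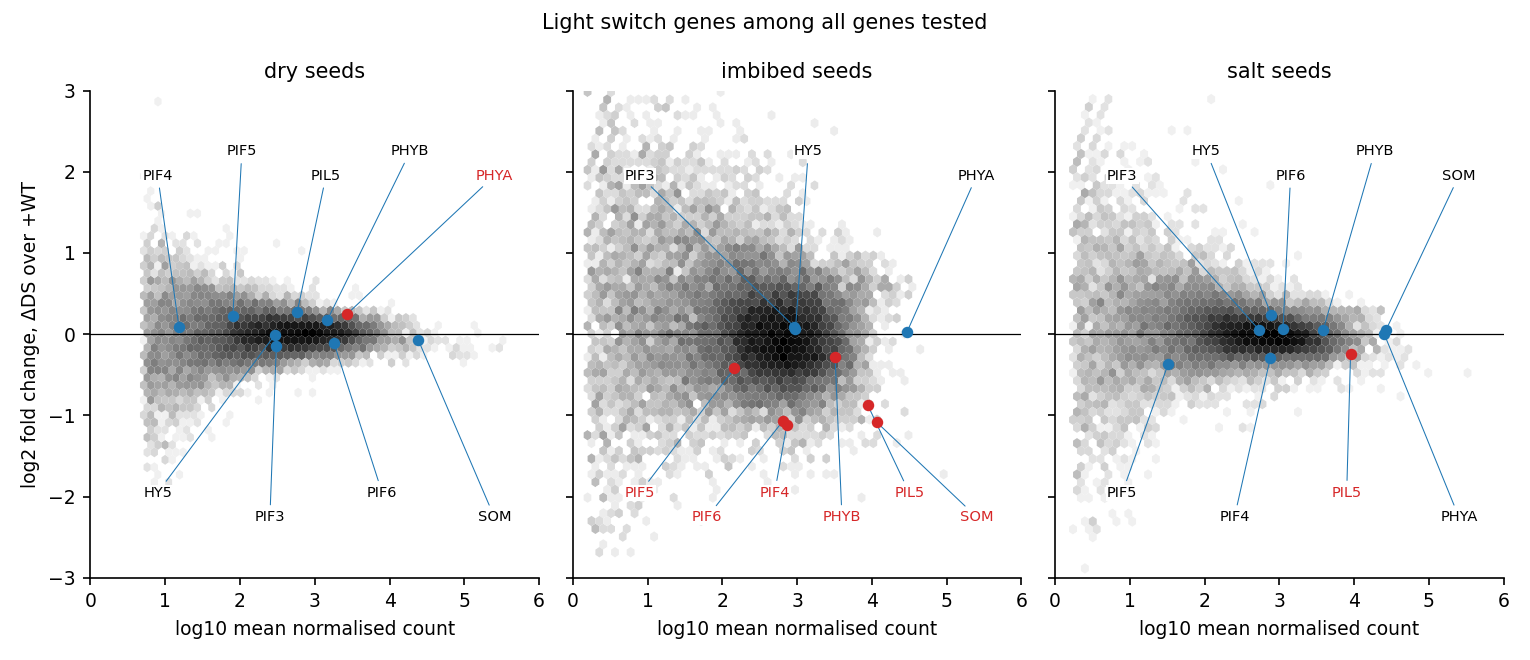
Log2 fold change of ΔDS over +WT seeds (y axis) against the log10 mean normalised count (x axis) of all tested genes as grey bins, darker where more genes fall, in each seed state. Genes beyond 3 on the y axis are not drawn. Light switch genes are dots, red where the adjusted p was below 0.05, and in imbibed seeds PIL5, PIF4, PIF6 and SOM sit in the lower part of the cloud for genes of their abundance.

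Among all tested genes of the imbibed table, the fold changes of PIF4, SOM and PIF6 lay at percentiles 4.43, 4.71 and 4.88 and that of PIL5 at 7.44. PIF5 lay at percentile 20.9 and PHYB at 28.8 of the same table. The falls of PIF5 and PHYB were thus well inside the general spread of fold changes in imbibed seeds, where 7924 of 19430 tested genes were called. In the salt table PIL5 stood at percentile 15.1, and in the dry table PHYA stood at 86.2.

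Several seed markers also differed between the genotypes, in both directions. Of 6 embryo storage markers (CRU1, CRU2, CRU3, OLE1, EM1 and EM6), 4 fell in dry seeds and all 6 in both imbibed and salt seeds. Beside these, 3.10%, 19.5% and 6.99% of all tested genes were lower in dry, imbibed and salt seeds, and 2.96%, 21.3% and 6.98% higher. Medians of the 6 storage markers were -0.18, -1.46 and -0.47 in the authors' deposited tables (3, 6 and 5 fell with scaling by implied totals). Their summed level in imbibed seeds was 2258070 normalised counts in +WT and 954578 in ΔDS. In dry seeds the sums were 1216900 and 1058140, and in salt seeds 2391440 and 1853940. The 4 endosperm markers gave sums of 667630 and 306383 in imbibed, 1112730 and 872008 in dry, and 814513 and 582481 in salt seeds, nearly all of it from EPR1. EPR1 fell in every state (not in salt seeds with scaling by implied totals). AGL62 rose in every state, but at mean levels of only 0.636, 0.503 and 0.400 CPM in dry, imbibed and salt seeds. MAN7 rose in imbibed and salt seeds, and PHE1 was at or near 0 in each table. Of the 5 seed coat markers, TT2 and TT10 were at 0 throughout, BAN was at or near 0, TTG2 and MUM4 rose in imbibed seeds, and the sums ranged from 135 to 310 normalised counts in +WT and from 156 to 525 in ΔDS. None of the 4 green seedling markers was called in any state. Storage transcripts were abundant in all 6 groups, as the label of seeds asks. The part of these marker changes in the results of the switch genes was not tested.

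The level of each gene also differed between seed states, which is given as a description without a test, since the 3 tables were normalised separately. Levels are given in CPM and, between genes, as CPM per kilobase of exon. The median gene was itself 0.66 higher on the log2 scale in imbibed than in dry +WT seeds, and 0.52 higher in ΔDS seeds. In +WT seeds PIL5 was at 20.0 CPM dry, 461 imbibed and 373 with salt, a 23.0-fold higher level in imbibed than in dry seeds. PHYA was 12.8-fold higher in imbibed than in dry +WT seeds, at 92.8 and 1190 CPM. PIF4 went from 0.562 CPM in dry to 40.8 in imbibed +WT seeds, a 72.5-fold ratio over a dry level of few reads. Smaller ratios of imbibed over dry +WT seeds were found for HY5 (3.41), PIF3 (2.99), PHYB (2.75) and PIF5 (2.41). PIF6 and SOM had the opposite order, with 36.1 CPM imbibed beside 70.8 dry for PIF6 and 641 beside 945 for SOM, on the log2 scale -0.97 ± 0.207 and -0.56 ± 0.158 (approximate SE).

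In ΔDS seeds the distances between states were different for several genes. As levels are implied from the fold changes, this is the same quantity as the differences of genotype effects compared below. PIL5 was 10.4-fold higher in imbibed than in dry ΔDS seeds, beside 23.0-fold in +WT. SOM was -1.57 on the log2 scale in imbibed over dry ΔDS seeds, beside -0.56 in +WT, and PIF6 was at -1.93 beside -0.97. With salt in the medium SOM stood at 1004 CPM in +WT and 1041 in ΔDS, near its dry levels of 945 and 897. PIL5 in salt seeds was at 373 and 314 CPM, well above its dry levels of 20.0 and 24.2. PIF5 was lower in salt than in imbibed seeds of both genotypes, at 1.41 and 1.10 CPM beside 6.78 and 5.07.

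**Figure D3:**
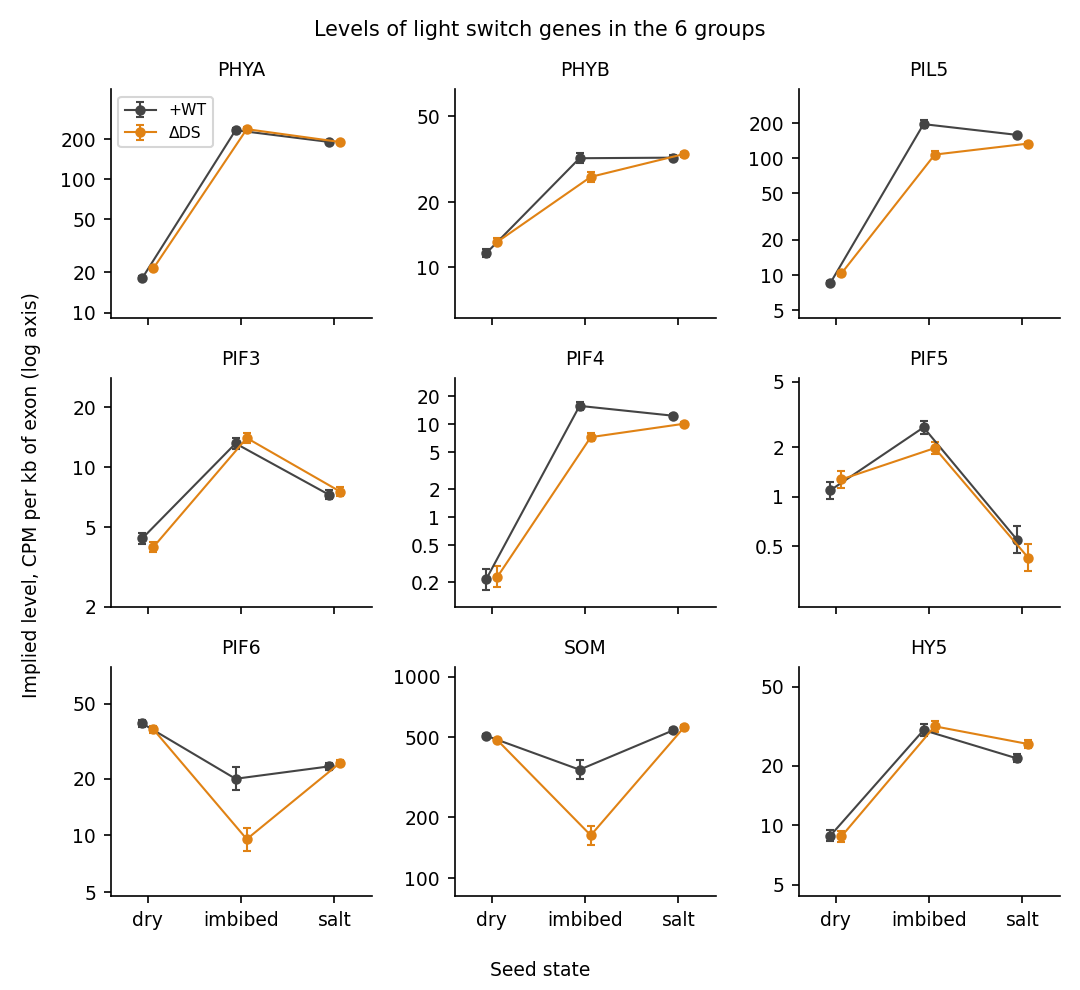
Implied level in CPM per kilobase of exon (log y axes, which differ between panels) of 9 light switch genes in dry, imbibed and salt seeds (x axis), for +WT in grey and ΔDS in orange. Points are implied group means, bars are approximate ± 1 SE from the error of the fold change, and the tables of the 3 states were normalised separately. The lines part most in imbibed seeds for PIL5, PIF4, PIF6 and SOM. In salt seeds they lie close for PIF6 and SOM. The ΔDS line stays below that of +WT there for PIL5 and, short of the threshold, for PIF4, by less than in imbibed seeds.

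Per kilobase, SOM was the most abundant member in 5 of the 6 groups, from 345 in imbibed +WT to 561 in salt ΔDS seeds. In imbibed ΔDS seeds PHYA came first with 237 CPM per kilobase and SOM second with 163. In dry +WT seeds the order below SOM (509) was PIF6 (39.2), PHYA (18.2), PHYB (11.6), HY5 (8.85), PIL5 (8.53), PIF3 (4.41), PIF5 (1.10) and PIF4 (0.216), all in the same unit, and HY5 and PIL5 did not differ beyond their spread. In imbibed +WT seeds it was PHYA (233), PIL5 (197), PHYB (31.9), HY5 (30.2), PIF6 (20.0), PIF4 (15.7), PIF3 (13.2) and PIF5 (2.65). There PHYB and HY5, PIF6 and PIF4, and PIF4 and PIF3 were neighbours that did not differ beyond their spread. PIL5 thus had rank 6 in dry and rank 3 in imbibed and salt +WT seeds, while PIF6 had rank 2 in dry and rank 6 in imbibed +WT seeds. In salt +WT seeds the first 3 places went to SOM (541), PHYA (190.3) and PIL5 (159), and the neighbours PIF6 and HY5 did not differ beyond their spread.

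The genotype effects were then compared between states by subtracting one deposited log2 fold change from the other, with an approximate z test and Benjamini-Hochberg adjustment over all genes tested in both tables. The differences imbibed minus dry and salt minus imbibed both use the imbibed libraries. From dry to imbibed seeds the effect was more negative for 4 of 9 genes and more positive for 0, beside 16.5% of all genes more negative, 8.49% more positive and 25.0% either way. PIL5 differed most among these, by -1.14 ± 0.178 on the log2 scale (SE, approximate z test, adjusted p = 3.10e-08). SOM differed by -1.01 ± 0.223 (adjusted p = 1.75e-04), PIF6 by -0.96 ± 0.293 (adjusted p = 0.00782) and PHYB by -0.46 ± 0.134 (adjusted p = 0.00500). The PHYB difference was lost with the length trend removed (adjusted p = 0.102). PIF4 had a difference of -1.20 with a 95% interval of -2.32 to -0.08, which did not pass (adjusted p = 0.109), and PIF5 one of -0.64 (adjusted p = 0.105).

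From imbibed to salt seeds the effect was more positive for 5 of 9 genes and more negative for 0, beside 5.85% of all genes more positive, 3.31% more negative and 9.16% either way. SOM differed by 1.13 ± 0.227 (adjusted p = 1.62e-04), PIF6 by 1.13 ± 0.294 (adjusted p = 0.00686), PIF4 by 0.83 ± 0.240 (adjusted p = 0.0149), PIL5 by 0.62 ± 0.158 (adjusted p = 0.00529) and PHYB by 0.34 ± 0.120 (adjusted p = 0.0481). The PHYB difference was lost in 3 of the alternatives, at adjusted p = 0.0553, 0.0729 and 0.0888. From dry to salt seeds only PIL5 passed, at -0.53 ± 0.108 (adjusted p = 9.54e-05), beside 4.19% of all genes more negative, 1.64% more positive and 5.83% either way. SOM and PIF6 had salt minus dry differences of 0.13 (95% interval -0.01 to 0.26) and 0.17 (-0.05 to 0.39), and neither passed. PIF3 and HY5 passed in none of the 3 comparisons.

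**Figure D4:**
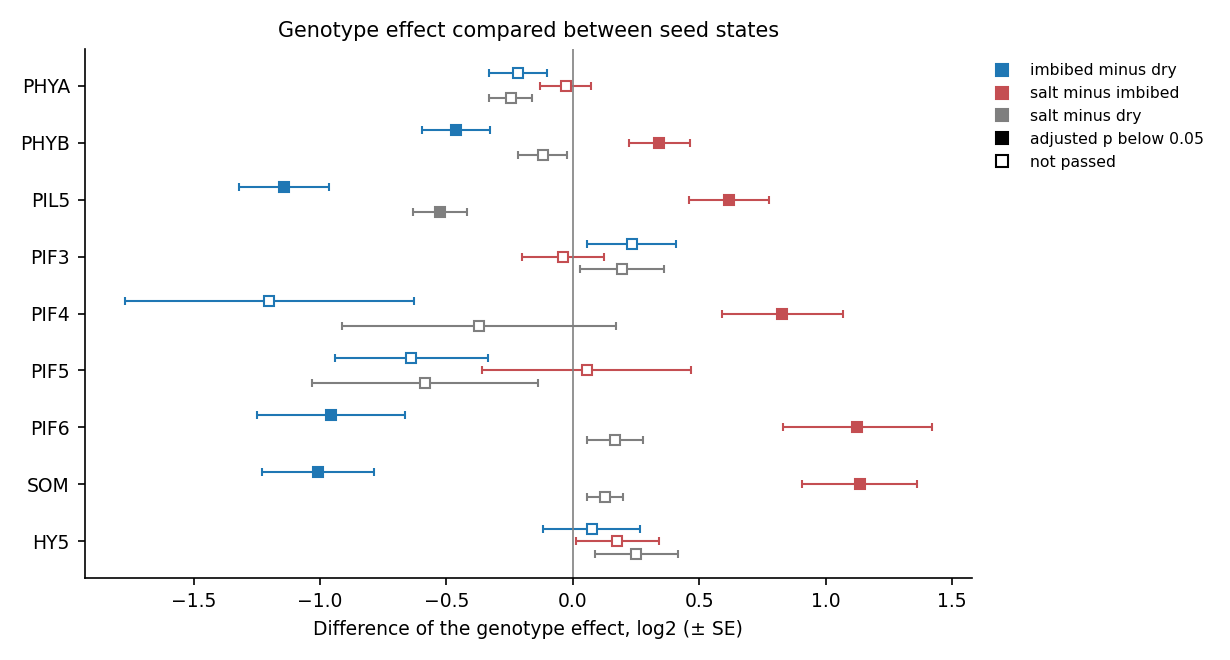
Difference of the genotype effect between seed states on the log2 scale (x axis) for 9 light switch genes (y axis), for imbibed minus dry, salt minus imbibed and salt minus dry. Squares are differences of the deposited fold changes, bars are ± 1 SE and filled squares have an adjusted p below 0.05. The filled squares of imbibed minus dry lie left of 0, those of salt minus imbibed lie right of 0, and of salt minus dry PIL5 at -0.53 is filled.

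Around the switch, 53 further genes of light signalling and of hormone and germination steps were read from 8 lists. In imbibed seeds 12 rose and 15 fell of 52 tested, in salt seeds 2 rose and 4 fell of 47, and in dry seeds 0 rose and 2 fell of 40, to be read beside the shares of all genes given above. With scaling by implied totals the split was 16 higher and 7 lower in imbibed, 11 and 2 in salt, and 7 and 0 in dry seeds, beside the shares of 42.3%, 22.6% and 8.74% of all genes called either way under it. Fold changes are given for at most 6 genes each way per state, those with the smallest adjusted p, and for GA3OX1 beside GA3OX2. Other genes are named after their values were seen, to spell out a count or a list. Beside the counts per list below, 19.5% of all tested genes in imbibed seeds were lower, 21.3% higher and 40.8% called either way. Among other phytochromes 2 of 3 fell in imbibed seeds (1 with scaling by implied totals). PHYD, a close relative of PHYB, was at -0.69 ± 0.191 in the authors' deposited table. The blue light receptors CRY1 and CRY2 fell too, 2 of 3 other photoreceptors (0 with scaling by implied totals). Of 4 genes of PHYA nuclear import and its factors 0 were called in imbibed seeds. Of 7 COP1/SPA and DET1 repressors, which mark light factors for destruction in the dark, 3 fell and 0 rose (0 fell and 1 rose with scaling by implied totals), and SPA2 was at -0.41 ± 0.111 in the authors' deposited table.

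Among the other PIF-related bHLH genes, several were higher in imbibed ΔDS seeds, but none of those named PIF or PIL. PIF7 fell, PIL1 was not called and PIF8 was at 0. PIF7 and PIL1 averaged only 0.882 and 0.298 CPM in imbibed seeds, so a split by name cannot be read from these genes. Of 8 tested, 5 rose and 1 fell, with a median of 1.33 (5 rose and 0 fell with scaling by implied totals). Beside this, 21.3% of all tested genes were higher and 19.5% lower. SPT, which acts on the cold response of dormant seeds, rose from 593 to 1346 normalised counts (1.18 ± 0.216, adjusted p = 1.28e-06 in the authors' deposited table). ALC, a relative of SPT that acts in fruit opening, rose from 42.2 to 121 (1.52 ± 0.316, adjusted p = 2.12e-05 in the authors' deposited table). HEC2, a factor of carpel development, rose from 49.3 to 163 (1.73 ± 0.368, adjusted p = 3.57e-05 in the authors' deposited table). HEC1 and PAR2 were the others that rose, and PIF7 was the one that fell. In imbibed seeds the mean levels of ALC (3.34 CPM), HEC2 (4.34), PAR2 (1.92) and PIF7 (0.882) were below the floor of 5 CPM. Those of SPT (39.5 CPM) and HEC1 (8.09) were above it. With salt SPT rose (0.53 ± 0.174, adjusted p = 0.0221) and PIF7 fell (-1.10 ± 0.306, adjusted p = 0.00442) in the authors' deposited table.

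A mixed list of output genes, with ELIP1, ELIP2 and CHS as genes induced by light and ATHB2, XTH15 and IAA19 as genes of shade and PIF-driven growth, rose in 5 of 6 cases in imbibed ΔDS seeds and fell in 0. Its median was 1.01, and the same counts were found with scaling by implied totals. Of all tested genes 21.3% were higher and 19.5% lower in imbibed seeds. CHS, the entry enzyme of flavonoid synthesis, went from 261 to 643 normalised counts (1.302 ± 0.257, adjusted p = 8.3e-06 in the authors' deposited table). CHS also rose with salt, from 14.6 to 52.8 (1.86 ± 0.419, adjusted p = 2.03e-04 in the authors' deposited table). ELIP1, ELIP2, XTH15 and IAA19 were the others that rose in imbibed seeds, so both kinds were among the 5. Low levels limit this count. The mean levels of IAA19 (0.529 CPM), ELIP2 (0.688) and ELIP1 (4.39) in imbibed seeds were below the floor of 5 CPM. Those of CHS (18.4 CPM) and XTH15 (6.97) were above it. Among HY5 partners and BBX factors, BBX21 and BBX22 fell, 2 of 5 (with scaling by implied totals 1 fell and 1 rose).

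Of 16 hormone and germination genes, listed as lying below PIL5 and SOM, 2 rose and 5 fell in imbibed seeds. With scaling by implied totals 4 rose and 5 fell. Of all tested genes in imbibed seeds 21.3% were higher, 19.5% lower and 40.8% called either way. The count called either way is near that share and is no result about the list. GA3OX2, a last step of gibberellin synthesis, rose from 1466 to 2712 normalised counts (0.89 ± 0.222, adjusted p = 4.53e-04 in the authors' deposited table). GA3OX1, of the same step, was not called, at 1763 and 1758 in +WT and ΔDS (-0.004 ± 0.113, adjusted p = 0.982 in the authors' deposited table). JMJ22, a histone demethylase gene that promotes germination, rose from 882 to 1433 (0.70 ± 0.158, adjusted p = 9.47e-05 in the authors' deposited table), whereas its relative JMJ20 fell (-0.57 ± 0.135). ABA1, an early step of abscisic acid synthesis, fell from 3262 to 1417 (-1.20 ± 0.250, adjusted p = 2.32e-05 in the authors' deposited table). The abscisic acid response factors ABI3 (-0.53 ± 0.120) and ABI5 (-0.74 ± 0.207) fell too in the authors' deposited table, and MFT was the fifth that fell. Not called in imbibed seeds were GA3OX1, GA2OX2, CYP707A2, NCED6, NCED9, GAI, RGA, RGL2 and DAG1. With salt ABA1 fell (-0.29 ± 0.051) and so did MFT (-0.24 ± 0.052), a germination regulator that responds to abscisic acid, in the authors' deposited table. In dry seeds ABI5 (-0.17 ± 0.041) and MFT (-0.24 ± 0.077) were the genes called, both lower in the authors' deposited table. The salt call of MFT, the salt call of PHYD and both dry calls were lost with scaling by implied totals.

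**Figure D5:**
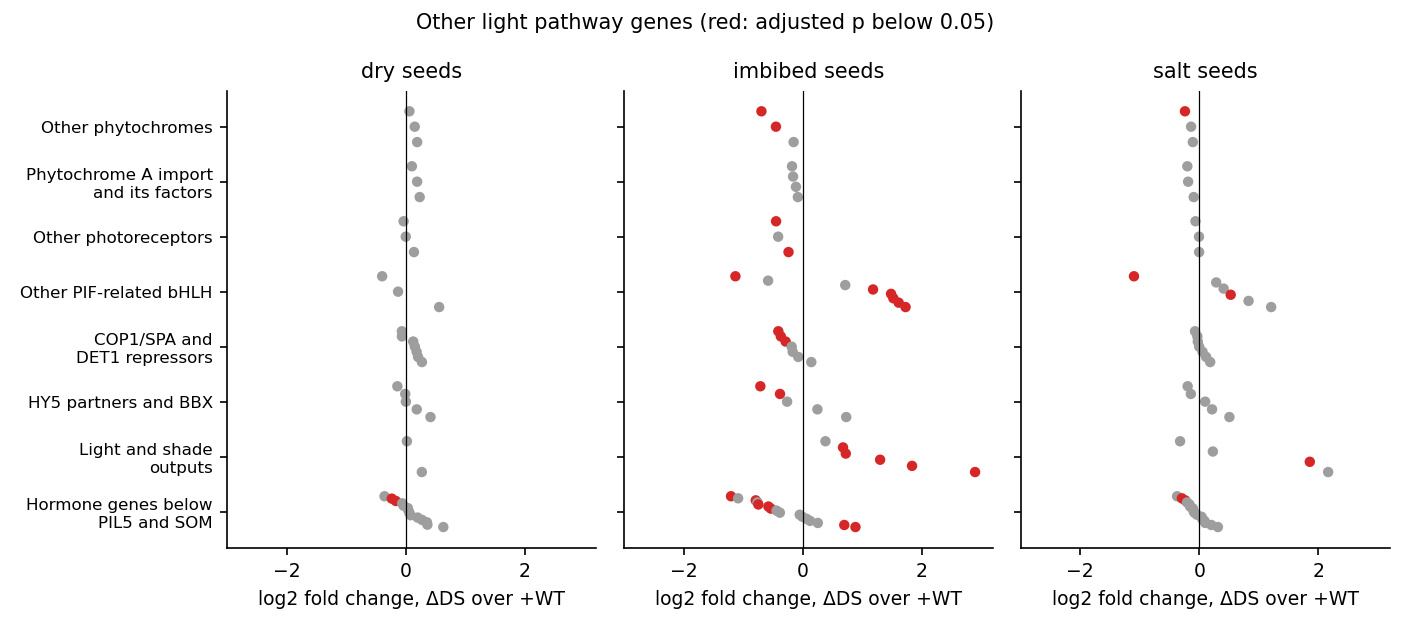
Log2 fold change of ΔDS over +WT seeds (x axis) of the tested genes of 8 light pathway lists (y axis) in dry, imbibed and salt seeds, from the authors' deposited tables. Each point is 1 gene, red where the adjusted p was below 0.05. In imbibed seeds red points lie right of 0 for 5 light and shade outputs and 5 PIF-related bHLH genes, and left of 0 in most of the other lists.

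Among 9459 genes with at least 5 CPM in all 6 groups, the 5 whose levels over these groups were most like those of PIL5 were AT1G77480, LBD40, GRF3, ADC2 and DI21. Likeness was the root mean square difference of the 6 centred log2 levels, which was 0.208 for AT1G77480, 0.235 for LBD40, 0.307 for GRF3, 0.311 for ADC2 and 0.332 for DI21. The level of LBD40, a LOB domain gene, was 20.2 CPM in dry, 313 in imbibed and 255 in salt +WT seeds. LBD40 fell in imbibed seeds as PIL5 did (-0.79 ± 0.224, adjusted p = 0.00197 in the authors' deposited table), and AT1G77480 fell by less (-0.31 ± 0.101, adjusted p = 0.00699). GRF3, a growth regulator gene, stood at 0.00 ± 0.091 in imbibed seeds in the authors' deposited table. In +WT seeds GRF3 had 5.99 CPM dry and 85.4 imbibed. The 6 levels include both imbibed groups, so the genotype effect in imbibed seeds was part of the choice of these 5 genes. Their genotype effects are thus a description and no separate result.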

How the data were processed

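The 3 deposited tables hold the authors' genotype comparison (ΔDS and +WT) for dry, imbibed and salt seeds, each from 6 libraries. HISAT2, DESeq2 and TAIR10 are named, without versions, in the submitters' processing notes. The read counter, annotation version and strandedness were not given in the sources used here. Per the file headers, the columns are a mean signal (normalised read coverage per gene), a log2 fold change with its standard error on the log2 scale, a Wald score, and a p-value with its adjusted p-value, all deposited by the authors. The deposited score equals the fold change over its error. Per-library depth is unknown, so no counting interval is given.

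The planned count model needs values per library. The fallback fixed with it, the authors' deposited adjusted p below 0.05, was used. Implied means are 2 × mean/(1 + 2 to the power of the fold change) for +WT. They are given per 1000000 of the table's summed means (CPM), per kilobase of exon from TAIR10.1, and with an approximate error of SE divided by the root of 2. Effects were compared between states with an approximate z test and Benjamini-Hochberg adjustment. Of 33602 identifiers 32835 matched TAIR10.1. Alternatives were scaling by implied library totals, a lowess length trend removed (span 0.3), a floor of 5 CPM, adjustment over every gene that has a p, a fold of at least 1.5, the median gene as centre and, for levels, scaling by the median gene.

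Genes named by rule are FLOE1, the 10 members, up to 6 list genes each way per state by adjusted p, and the 5 genes most like PIL5. Other list genes were named after their values were seen. The members and lists were chosen with earlier results of these data known. Steps were tested on simulated data. The tools were matplotlib 3.10.9, statsmodels 0.14.6, scipy 1.17.1, pandas 2.3.3, numpy 2.4.6 and Python 3.11.15.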

Additional observations from a re-analysis of the deposited data

Results flagged for a closer look

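The genotype effect differed between seed states for PIL5, SOM, PIF6, PHYB and PIF4, by an approximate z test with Benjamini-Hochberg adjustment over all genes tested in both tables. Between imbibed and dry seeds the log2 difference was -1.14 for PIL5, -1.01 for SOM, -0.96 for PIF6 and -0.46 for PHYB. Between salt and imbibed seeds it was 1.13 for SOM, 1.13 for PIF6, 0.83 for PIF4, 0.62 for PIL5 and 0.34 for PHYB. Between salt and dry seeds it was -0.53 for PIL5. The first and second sets share the imbibed libraries.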

How the results depend on the processing

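The count of members called in imbibed seeds (4 to 6) stayed within 1.5 times under all alternatives run. So did the counts of members whose effect differed between imbibed and dry (3 to 4) or salt and imbibed seeds (4 to 5). In imbibed seeds the share of all tested genes called was 40.8%. It was 34.2% adjusted over all genes with a p, 50.3% with the floor of 5 CPM and 23.5% with the fold of 1.5. With implied totals the imbibed count held higher as well as lower genes. In dry seeds the count of 1 became 2 with a mean of at least 5 CPM, 0 with a fold of at least 1.5, 3 with scaling by implied library totals and 0 with the length trend removed. In salt seeds the count of 1 became 3 (1 higher, 2 lower) with the floor of 5 CPM, 0 with the fold of 1.5, 5 with implied totals (all higher), 2 centred on the median gene and 2 with the length trend removed. In these orders the share of all tested genes called was 9.78%, 1.43%, 8.74% and 5.03% in dry seeds and 19.9%, 3.93%, 22.6%, 14.1% and 14.0% in salt seeds. The count of 1 for salt minus dry became 2 with the floor. The cause was not tested.

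Signs turned in 10 cases, of which PHYA in salt seeds with implied totals (0.16, adjusted p = 0.00606) was called. The others were, for implied totals, SOM (0.0041) and HY5 (0.069) in dry seeds. With the length trend removed they were HY5 in dry seeds (0.028), PHYA in salt seeds (0.017), and the effect differences imbibed minus dry of HY5 (-0.00044) and salt minus dry of PHYB (0.010). For levels scaled by the median gene they were PHYA in +WT salt over imbibed seeds (0.0054) and SOM salt over dry seeds (-0.32 in +WT, -0.14 in ΔDS). Besides these 3, that scaling moved 49 level changes and left 2 the same. For imbibed over dry +WT seeds the log2 ratio of PIL5 went from 4.53 to 3.87 and that of PIF5 from 1.27 to 0.61. No paired analysis was possible because the files hold no values per library. Leaving out single replicates was not run for the same reason, so whether 1 library decides a value is not known. Low levels limit PIF4 in dry seeds and PIF5 in all states.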
